A study of Homo sapiens with 36 samples.

Results

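The genes described here were the constant region genes of the immunoglobulin heavy chain (IGHM, IGHD, IGHG1, IGHG2, IGHG3 and IGHA1), those of the light chains (IGKC, IGLC2 and IGLC3) and JCHAIN, 10 of the 37549 gene entries of the count table, each taken by its symbol. The study exposed the B lymphoblastoid leukaemic cell lines MEC1, JVM2 and EHEB to anti-leukaemic drugs and sequenced ribosomal RNA-depleted total RNA. Each line had 4 groups of 3 libraries, 36 libraries in all. The groups were DMSO as vehicle control, the purine analogue fludarabine at 50 µM, the BTK inhibitor ibrutinib at 5 µM and the PI3K delta inhibitor idelalisib at 10 µM. MEC1 was exposed for 48 h, JVM2 for 72 h and EHEB for 96 h, so that line and time cannot be told apart. MEC1 carries mutated p53 and the other lines wild-type p53, and each group represents a single cultured line. Libraries are named by their titles, which end in a library number, where single ones matter. They held between 26590705 and 53538925 counts (median 42114145). The labels state triplicates without saying whether these were separate cultures, and the p values therefore measure the spread between 3 libraries. The ibrutinib and idelalisib libraries carry a number series of their own that holds no DMSO library, so that drug and series cannot be told apart for these drugs.

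An antibody pairs identical heavy chains with identical light chains, and each chain joins a variable region to a constant region. The heavy chain constant gene sets the isotype. IGHM and IGHD lie next to the variable region and are read first, as IgM and IgD, and class switching deletes them to bring an IgG, IgA or IgE gene into use. A B cell normally keeps a single light chain, kappa from IGKC or lambda from an IGLC gene. JCHAIN encodes the joining peptide that links IgM pentamers and IgA dimers before secretion.

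All 3 light chain members have a single constant exon, and the start of its coding sequence is shown because light chain use is compared between the lines. The sequences are from GRCh38, 5′ to 3′ on the strand of the gene, and capitals mark the base at which IGLC2 and IGLC3 differ within the stretch.
IGKC, chr2:88857564-88857683, minus strand: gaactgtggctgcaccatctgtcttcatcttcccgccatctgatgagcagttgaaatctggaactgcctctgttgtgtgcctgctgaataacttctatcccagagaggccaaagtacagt
IGLC2, chr22:22900976-22901095, plus strand: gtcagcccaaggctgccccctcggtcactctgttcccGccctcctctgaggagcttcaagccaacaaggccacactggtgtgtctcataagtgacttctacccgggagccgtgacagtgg
IGLC3, chr22:22906342-22906461, plus strand: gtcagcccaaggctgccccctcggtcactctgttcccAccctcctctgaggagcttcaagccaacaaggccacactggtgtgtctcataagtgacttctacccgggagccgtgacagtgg
IGLC2 and IGLC3 shared 314 of their 317 coding bases (99.1%), with the longest identical run 173 bases long. Counted from the start of the coding sequence, with the IGLC2 base first, the differences were G38A, T212C and G247A. Reads of these genes can be told apart only where they cover such a base or flanking sequence, so their separate values are uncertain and their sum is the safer measure. IGKC and IGLC2 were 64.6% identical over 297 aligned bases, with no identical run over 9 bases.

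The IgG genes are also near-copies. Coding sequences of IGHG1, IGHG2, IGHG3 and IGHG4 were between 95.3% and 96.4% identical in the pairs compared, and IGHA1 and IGHA2 were 96.1% identical. The hinge, which joins the antigen-binding arms to the stem, is where the subclasses differ most in length, and the first hinge exon of each gene is shown for that reason.
IGHG1, chr14:105742341-105742385, minus strand: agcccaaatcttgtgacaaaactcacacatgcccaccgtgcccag
IGHG2, chr14:105644068-105644103, minus strand: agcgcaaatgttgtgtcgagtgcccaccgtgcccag
IGHG3, chr14:105770669-105770719, minus strand: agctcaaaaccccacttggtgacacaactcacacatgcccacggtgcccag
IGHG4, chr14:105625344-105625379, minus strand: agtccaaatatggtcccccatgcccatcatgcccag
IGHG3 has 4 hinge exons, of which the first is shown, and the hinges of IGHG1, IGHG2 and IGHG4 have a single exon of 45, 36 and 36 bases. How the authors' counting divided reads that match several of these genes is not given in the sources used here, so values of single IgG subclasses are uncertain.

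With DMSO the lines differed in both chains. JVM2 used IGHM with IGHD and mainly lambda light chain, EHEB used IGHG1 with kappa and had almost no IGHM, and MEC1 held IGHM, IGHG1 and other isotypes together with kappa. The genes lie on chromosome 14 (IGHM at chr14:105851705-105856218, IGHD at chr14:105836765-105845677, IGHG3 at chr14:105764503-105771405, IGHG1 at chr14:105736343-105743071, IGHA1 at chr14:105703995-105708665 and IGHG2 at chr14:105639559-105644790, all on the minus strand and here in the order in which they follow the variable region), chromosome 2 (IGKC, chr2:88857161-88857683, minus strand), chromosome 22 (IGLC2, chr22:22900976-22901437, and IGLC3, chr22:22906342-22906803, plus strand) and chromosome 4 (JCHAIN, chr4:70655541-70681817, minus strand), by GENCODE release 44 on GRCh38. To compare genes of unequal length, levels with DMSO are given in CPM (counts per 1000000 counts of a library, with TMM factors over the 9 DMSO libraries) per kilobase of annotated exon.

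For the heavy chain, IGHM stood at 3085 ± 95.7 CPM per kb in JVM2 (mean ± SD, n = 3 here and below) and at 491 ± 18.8 CPM per kb in MEC1, whereas the EHEB libraries held between 0 and 8 IGHM counts. The difference between MEC1 and JVM2 was -2.65 ± 0.22 (SE, edgeR adjusted p = 6.11e-06) on the log2 scale. IGHD, the constant gene of the IgD receptor of naive B cells, reached 324 ± 20.2 CPM per kb in JVM2 and 7.91 ± 0.475 CPM per kb in MEC1, and all 12 EHEB libraries had an IGHD count of 0. With a floor of 3 counts over the EHEB group, IGHD was at least 23668-fold higher in JVM2 and at least 577-fold higher in MEC1 than in EHEB. The order was thus JVM2, MEC1 and EHEB for both genes, with no overlap between neighbours.

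The IgG genes had the opposite order. IGHG1, the main IgG subclass of serum, stood at 1234 ± 101 CPM per kb in EHEB and at 115 ± 4.66 CPM per kb in MEC1, and the JVM2 libraries held between 6 and 40 counts. IGHG3, which has the longest hinge, followed at 139.9 ± 4.69 and 13.04 ± 1.31 CPM per kb, and JVM2 held between 11 and 21 counts. IGHG2 had 97.97 ± 13.3 and 6.64 ± 0.806 CPM per kb and no count in the JVM2 libraries, which put it at least 11065-fold higher in EHEB and at least 750-fold higher in MEC1. EHEB exceeded MEC1 in all 3 IgG members, with log2 differences of MEC1 against EHEB of -3.42 ± 0.22 (SE, edgeR adjusted p = 1.20e-06) for IGHG1, -3.88 ± 0.14 (SE, edgeR adjusted p = 4.92e-07) for IGHG2 and -3.42 ± 0.11 (SE, edgeR adjusted p = 1.75e-08) for IGHG3. IGHA1, the main IgA gene, was at 38.8 ± 4.79 CPM per kb in EHEB and 37.6 ± 1.04 in MEC1, where the groups overlapped and the difference of -0.044 ± 0.20 (SE, edgeR adjusted p = 0.86) was not called, and JVM2 held at most 6 counts.

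As a share of all heavy chain constant counts, IGHM made up 91.4% ± 0.25 in JVM2, 65.2% ± 0.364 in MEC1 and 0.00133% ± 0.0023 in EHEB (SD over 3 libraries). IGHD took 8.60% ± 0.247 in JVM2 and 0.941% ± 0.0685 in MEC1. The IgG genes together, IGHG4 included, took 98.7% ± 0.217 in EHEB, 29.4% ± 0.287 in MEC1 and 0.0158% ± 0.00667 in JVM2, and IGHG1 alone 75.4% ± 1.49 in EHEB and 22.6% ± 0.623 in MEC1. Per kilobase of exon the IGHM share was 70.9% ± 0.362 in MEC1 and 90.5% ± 0.27 in JVM2. In RNA from whole cultures, cells that carry several isotypes and a mixture of cells with an isotype each cannot be told apart, nor can fewer cells of a type and less RNA per cell.

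For the light chains, IGKC was highest in EHEB at 16330.0 ± 1015 CPM per kb, against 625 ± 30.1 in MEC1 and 575 ± 50.9 in JVM2. EHEB exceeded JVM2 by 4.83 ± 0.088 (SE, edgeR adjusted p = 2.25e-09) on the log2 scale, while MEC1 and JVM2 overlapped and their difference of 0.12 ± 0.075 (SE, edgeR adjusted p = 0.189) was not called. IGLC2 stood at 1004 ± 39.7 and IGLC3 at 231.6 ± 6.46 CPM per kb in JVM2. Elsewhere IGLC2 had between 0 and 3 counts in MEC1 and between 5 and 10 in EHEB, and IGLC3 had none in MEC1 and at most 5 in EHEB, which placed IGLC3 at least 4813-fold higher in JVM2 than in MEC1. Kappa made up nearly all light chain constant counts in MEC1 and EHEB, but 34.5% ± 2.24 in JVM2 (31.7% ± 2.15 per kilobase of exon). On the same per kb scale, IGKC lay above the leading heavy chain gene in EHEB and MEC1, and IGLC2 lay below IGHM in JVM2.

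JCHAIN was present in all lines, at 445 ± 60.3 CPM per kb in JVM2, 438 ± 71.0 in EHEB and 230.3 ± 5.92 in MEC1. The levels in EHEB and JVM2 overlapped, with a difference of -0.022 ± 0.13 (SE, edgeR adjusted p = 0.9) on the log2 scale, and MEC1 lay below both, with a difference of -0.95 ± 0.13 (SE, edgeR adjusted p = 1.64e-04) against JVM2. JCHAIN was thus expressed in EHEB although IGHM was nearly absent there. In each comparison of lines 9 of the 10 members were called at an adjusted p under 0.05, against 63.8% of all 17394 genes tested between MEC1 and JVM2 (30.1% higher and 33.7% lower in MEC1), 67.4% between MEC1 and EHEB (31.6% higher and 35.8% lower in MEC1) and 59.6% between EHEB and JVM2 (29.9% higher and 29.6% lower in EHEB). The calls for IGLC2 and IGLC3 between MEC1 and EHEB rest on at most 10 and 5 counts a library and are not read as differences, which leaves 7 of the other 8 members called there.

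**Figure D1:**
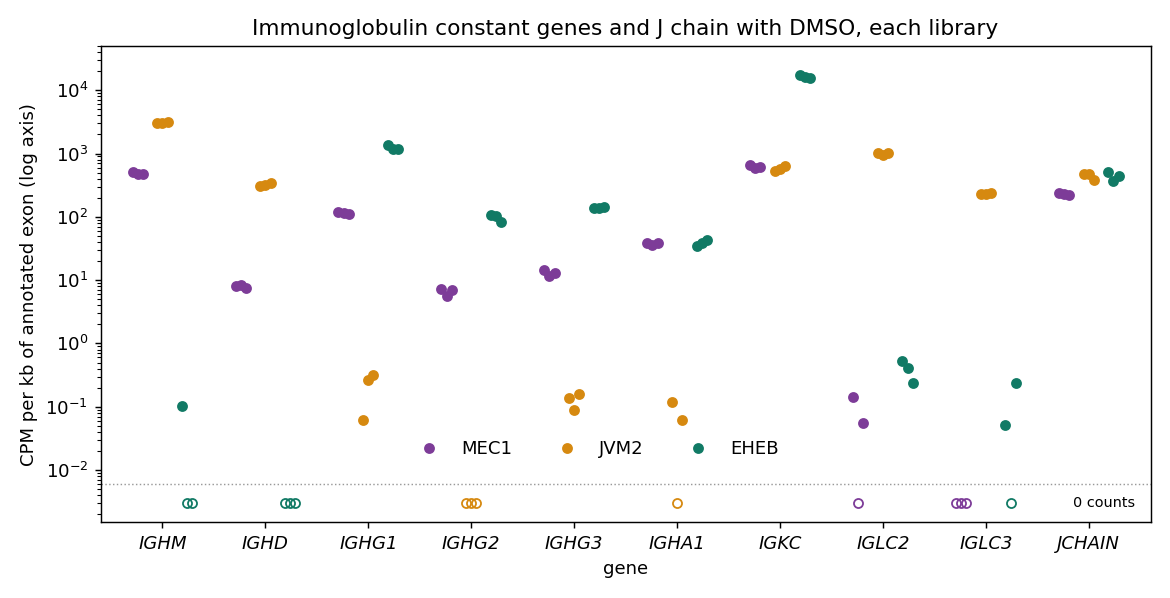
Each point is a DMSO library, with CPM per kilobase of annotated exon on a log axis for the 10 members in MEC1, JVM2 and EHEB, and open symbols below the dotted line are libraries with a count of 0. JVM2 is highest for IGHM, IGHD, IGLC2 and IGLC3, EHEB is highest for the IgG genes and IGKC, and IGHD is at 0 in EHEB.

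Fludarabine lowered most members in every line. In MEC1 7 of 8 tested members fell and none rose, in JVM2 6 of 8 fell and 1 rose, and in EHEB 6 of 7 fell and none rose. Over all genes tested, fludarabine changed 43.9% in MEC1 (21.2% higher, 22.7% lower), 47.2% in JVM2 (23.9% higher, 23.3% lower) and 37.5% in EHEB (18.4% higher, 19.2% lower). The median log2 fold change of the tested members was -0.98, -1.23 and -1.52 in MEC1, JVM2 and EHEB, and that of all genes 0.056, 0.056 and 0.020. Members left out by the filter on low counts were IGLC2 and IGLC3 in MEC1, IGHG2 and IGHA1 in JVM2, and IGHM, IGHD and IGLC3 in EHEB, where no library held more than 61 counts of any of them. The changes below are from CPM scaled by TMM within a line, and scaling by library size alone moved the median of all genes with fludarabine to 0.31 in MEC1 and 0.26 in JVM2 and left every fall called.

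The effects of the kinase inhibitors differed by line. In MEC1 ibrutinib raised 7 of 8 tested members and lowered 1, against 47.6% of all genes called (23.7% higher, 23.9% lower), and idelalisib raised 6 of 8, against 55% (27.6% higher, 27.4% lower). In JVM2 ibrutinib raised 3 of 8 and lowered 2, against 29.4% (14.5% higher, 15% lower), and idelalisib raised 4 and lowered 2, against 44.2% (21.6% higher, 22.6% lower). In EHEB ibrutinib lowered 3 of 7, against 19.7% (8.5% higher, 11.2% lower), and idelalisib raised 1 and lowered 1, against 33.3% (15.1% higher, 18.2% lower). The share of members called lay above the background in each comparison of a drug with DMSO except that of EHEB with idelalisib. Members that are near-copies (IGLC2 and IGLC3, and the IgG genes) or share a transcript (IGHM and IGHD) are not separate units. These shares are therefore a description only. Comparisons within a line share their DMSO libraries.

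**Figure D2:**
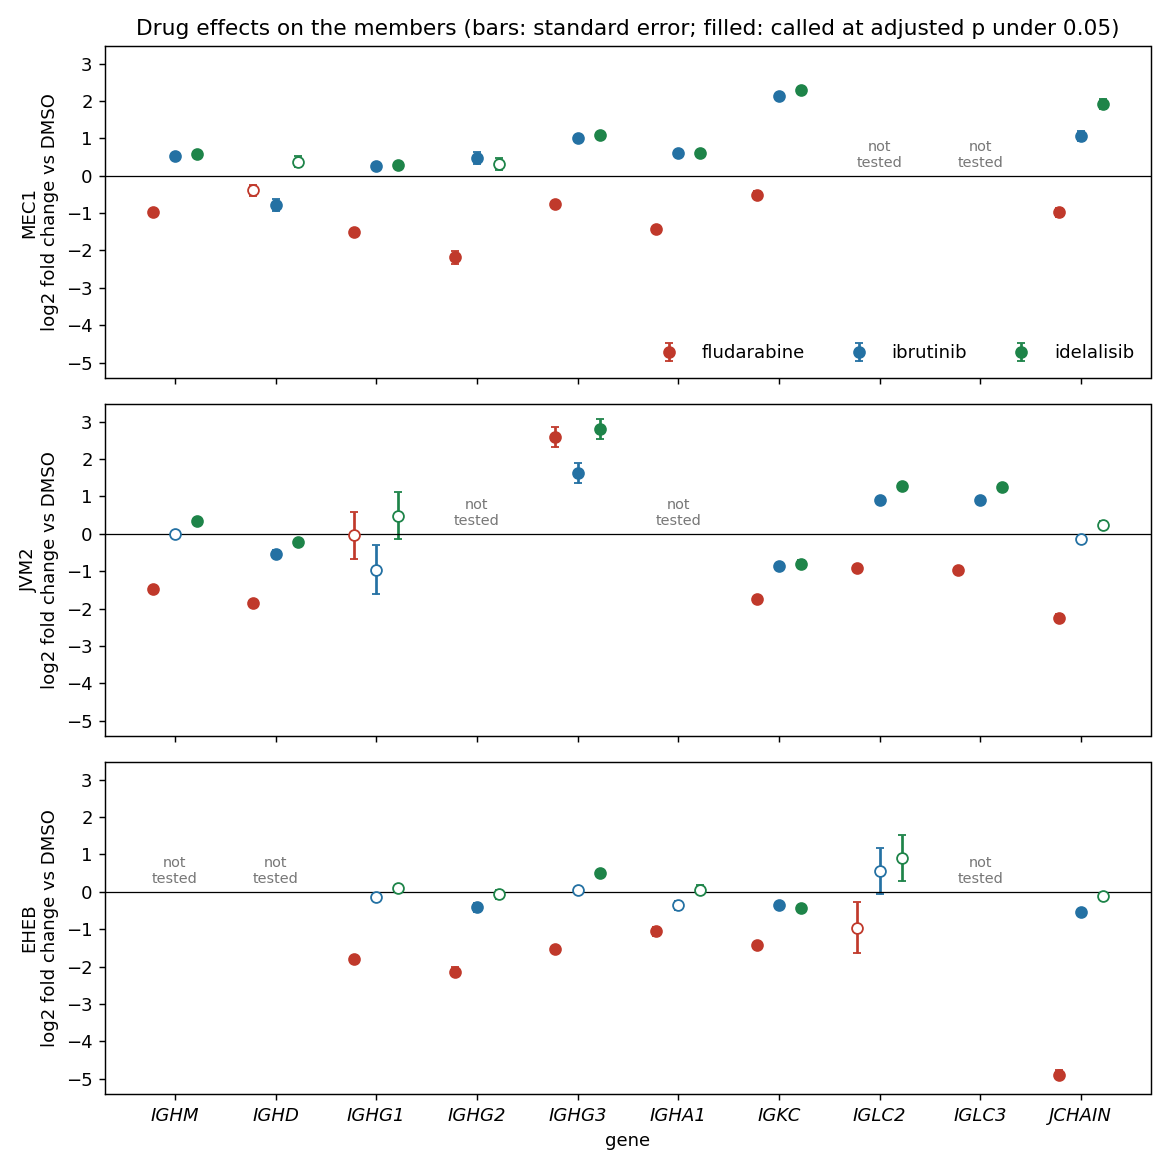
The log2 fold change against DMSO of each member is plotted by line and drug, with bars for the standard error, filled symbols for values called at an adjusted p under 0.05 and open symbols for the others. Called fludarabine values lie below 0 except for IGHG3 in JVM2, and the kinase inhibitors raise most members in MEC1, with IGKC at 2.13 and 2.29, while IGKC lies below 0 in JVM2 and EHEB.

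IGHM, the IgM heavy chain, fell with fludarabine and rose with idelalisib in both lines that express it. In MEC1 the DMSO libraries had 1058, 992 and 1002 CPM and the fludarabine libraries 517, 521 and 516 CPM, a log2 fold change of -0.97 ± 0.063 (SE, edgeR adjusted p = 6.47e-07). With ibrutinib they had 1541, 1320.0 and 1517 CPM and with idelalisib 1485, 1469 and 1576 CPM. Both inhibitor groups lay above the DMSO group without overlap, by 0.52 ± 0.063 (SE, edgeR adjusted p = 4.57e-05) and 0.57 ± 0.063 (SE, edgeR adjusted p = 1.55e-05). In JVM2 IGHM was at 5766, 5906 and 6116 CPM with DMSO and at 2157, 2197 and 2044 CPM after fludarabine, a change of -1.48 ± 0.04 (SE, edgeR adjusted p = 5.69e-10). Ibrutinib left it within the DMSO range at 6027, 5906 and 5838 CPM (-0.0014 ± 0.039 SE, edgeR adjusted p = 0.989), and with idelalisib it stood at 7289, 7587 and 7570.0 CPM, a rise of 0.34 ± 0.039 (SE, edgeR adjusted p = 5.13e-05). A joint fit of all 36 libraries, in which IGHM had an SE of 0.35, no longer called the rises.

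IGHD, made from the same transcript as IGHM by splicing, fell with the inhibitors in JVM2, where IGHM did not. It stood at 526, 555 and 594 CPM with DMSO, 161, 166 and 133.8 CPM after fludarabine, 420.1, 384 and 357 CPM after ibrutinib and 481, 491 and 459 CPM after idelalisib. All treated groups lay below the DMSO group, with log2 fold changes of -1.86 ± 0.088 (SE, edgeR adjusted p = 3.15e-08), -0.53 ± 0.085 (SE, edgeR adjusted p = 9.56e-04) and -0.23 ± 0.085 (SE, edgeR adjusted p = 0.0493), and the last call was lost when JVM2_CTRL_DMSO_86, JVM2_CTRL_DMSO_87, JVM2_Idel_10uM_238, JVM2_Idel_10uM_239 or JVM2_Idel_10uM_240 was left out. The ratio of IGHD to IGHM counts in JVM2 was 0.0942 ± 0.00296 with DMSO, 0.0719 ± 0.00557 after fludarabine, 0.0653 ± 0.00428 after ibrutinib and 0.0638 ± 0.00281 after idelalisib, as mean ± SD of 3 libraries. Each treated group lay below the DMSO group in this ratio, with an exact two-sided permutation p of 0.1, the smallest that 3 against 3 libraries can give. In MEC1 the level was low, at 14.8, 15.5 and 13.8 CPM with DMSO and 7.74, 10.1 and 7.75 CPM after ibrutinib, a change of -0.78 ± 0.15 (SE, edgeR adjusted p = 0.00131). Fludarabine (-0.39 ± 0.15 SE, edgeR adjusted p = 0.0575) and idelalisib (0.37 ± 0.15 SE, edgeR adjusted p = 0.0549) were not called there.

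The IgG genes fell with fludarabine in both lines that express them. In EHEB IGHG1 went from 3827, 3314 and 3382 CPM with DMSO to 1018, 967 and 1046 CPM, a change of -1.80 ± 0.088 (SE, edgeR adjusted p = 7.84e-08). In MEC1 it went from 366, 352 and 339.8 to 121, 131 and 119 CPM, a change of -1.52 ± 0.073 (SE, edgeR adjusted p = 1.26e-07). The changes were -2.14 and -1.52 for IGHG2 and IGHG3 in EHEB and -2.18 and -0.77 in MEC1, each called, with the largest edgeR adjusted p at 4.85e-05. IGHM fell less than IGHG1 in MEC1, and the ratio of IGHG1 to IGHM counts went from 0.347 ± 0.00807 with DMSO to 0.238 ± 0.0112 after fludarabine, 0.287 ± 0.00207 after ibrutinib and 0.285 ± 0.0273 after idelalisib. None of these treated groups overlapped the DMSO group (exact permutation p of 0.1 each).

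With the kinase inhibitors IGHG3 was the IgG member with the largest rises in MEC1. In MEC1 it was at 45.9, 37.7 and 41.8 CPM with DMSO, 88.8, 78.2 and 84.8 CPM after ibrutinib and 86.6, 80.5 and 98.2 CPM after idelalisib, rises of 1.01 ± 0.091 (SE, edgeR adjusted p = 5.45e-06) and 1.08 ± 0.091 (SE, edgeR adjusted p = 1.96e-06). IGHG1 rose by 0.25 and 0.29 in the same libraries, and these small calls were lost in some alternative fits, the ibrutinib one also without MEC1_DMSO_CTRL_48h_39, MEC1_Ibru_5uM_48h_184 or MEC1_Ibru_5uM_48h_186. In EHEB idelalisib raised IGHG3 from 404, 415 and 432 to 551, 608 and 626 CPM (0.51 ± 0.056 SE, edgeR adjusted p = 4.15e-05), whereas IGHG1 at 3407, 4048 and 3783 CPM overlapped its DMSO group (0.095 ± 0.085 SE, edgeR adjusted p = 0.434). Ibrutinib lowered IGHG2 in EHEB from 303, 292 and 233.2 to 206, 195 and 222 CPM (-0.41 ± 0.12 SE, edgeR adjusted p = 0.0312), a call that was lost without EHEB_CTRL_DMSO_133, EHEB_CTRL_DMSO_134, EHEB_Ibru_5uM_280 or EHEB_Ibru_5uM_281. In JVM2, at a level near the limit of counting, IGHG3 had 0.411, 0.263 and 0.47 CPM with DMSO, 2.62, 2.39 and 1.88 after fludarabine, 0.935, 1.48 and 1.14 after ibrutinib and 2.60, 2.97 and 2.42 after idelalisib. Each treated group was higher, by 2.58, 1.62 and 2.80 on the log2 scale (edgeR adjusted p = 1.58e-05, 0.0012 and 1.25e-05), while IGHG1 held between 3 and 50 counts in JVM2 and was called with no drug.

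IGHA1 fell with fludarabine from 59.7, 57.5 and 60.6 to 20.2, 23.6 and 21.8 CPM in MEC1 (-1.44 ± 0.073 SE, edgeR adjusted p = 1.55e-07) and from 49.9, 56.7 and 63.9 to 25.3, 27.0 and 29.7 CPM in EHEB (-1.05 ± 0.12 SE, edgeR adjusted p = 3.86e-05). In MEC1 it rose with ibrutinib and idelalisib, to 93.9, 84.9 and 93.4 and 90.7, 85.4 and 94.3 CPM, changes of 0.61 and 0.61. In EHEB neither inhibitor gave a call for it, with -0.36 ± 0.12 (SE, edgeR adjusted p = 0.0573) for ibrutinib and 0.055 ± 0.12 (SE, edgeR adjusted p = 0.762) for idelalisib.

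The kappa gene moved in opposite directions in different lines. In MEC1 IGKC stood at 379.9, 348 and 358 CPM with DMSO and at 271, 224 and 269 CPM after fludarabine (-0.51 ± 0.089 SE, edgeR adjusted p = 7.60e-04). With ibrutinib it reached 1557, 1523 and 1674 CPM and with idelalisib 1861, 1571 and 1863 CPM, the largest rises among the members that the line expresses, by 2.13 ± 0.092 (SE, edgeR adjusted p = 3.57e-08) and 2.29 ± 0.092 (SE, edgeR adjusted p = 2.23e-08). IGKC counts per IGHM count in MEC1 were 0.356 ± 0.00443 with DMSO and 0.492 ± 0.0534 after fludarabine. They were 1.09 ± 0.0731 after ibrutinib and 1.17 ± 0.0924 after idelalisib, all treated groups above the DMSO group (exact permutation p of 0.1 each). In EHEB the level with DMSO was 9348, 8762 and 8269 CPM, and all drugs lowered it. Fludarabine gave 3457, 3117 and 3168 CPM (-1.44 ± 0.073 SE, edgeR adjusted p = 1.01e-07), ibrutinib 6609, 6468 and 7650.0 CPM (-0.35 ± 0.072 SE, edgeR adjusted p = 0.00626) and idelalisib 6227, 6606 and 6624 CPM (-0.44 ± 0.072 SE, edgeR adjusted p = 7.59e-04).

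In JVM2 the light chain genes separated. IGLC2 stood at 491, 456 and 482 CPM with DMSO, 249.6, 251 and 255 after fludarabine, 896, 899 and 878 after ibrutinib and 1063, 1182 and 1204 after idelalisib. The changes were -0.92 ± 0.049 (SE, edgeR adjusted p = 8.13e-08), 0.90 ± 0.049 (SE, edgeR adjusted p = 1.14e-06) and 1.27 ± 0.05 (SE, edgeR adjusted p = 2.09e-08). IGKC in the same libraries stood at 281.4, 309.9 and 335 CPM with DMSO, 96.8, 98.7 and 79.5 after fludarabine, 181, 172 and 156 after ibrutinib and 184.7, 175 and 173 after idelalisib. It fell with every drug, with changes of -1.75 ± 0.094 (SE, edgeR adjusted p = 8.39e-08), -0.87 ± 0.092 (SE, edgeR adjusted p = 6.87e-05) and -0.80 ± 0.092 (SE, edgeR adjusted p = 4.47e-05), so that both inhibitors raised lambda and lowered kappa in 1 line. The kappa share of light chain counts went from 34.5% ± 2.24 with DMSO to 22.9% ± 2.26 after fludarabine, 13.4% ± 0.746 after ibrutinib and 11.2% ± 0.955 after idelalisib. Counts of IGKC per IGLC2 count were 0.649 ± 0.0665 with DMSO and 0.155 ± 0.0162 after idelalisib, without overlap (exact permutation p of 0.1).

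IGLC3 moved with IGLC2, by -0.98, 0.90 and 1.26 after fludarabine, ibrutinib and idelalisib, each called. The ratio of IGLC3 to IGLC2 counts was 0.231 ± 0.00642 with DMSO and between 0.221 and 0.230 with the drugs, with overlapping groups throughout. Given the 99.1% identity shown above, this ratio cannot tell apart transcription of both genes and a division of the same reads between them. IGLC2 counts per IGHM count in JVM2 were 0.0804 ± 0.00415 with DMSO, 0.118 ± 0.00572 after fludarabine, 0.15 ± 0.00186 after ibrutinib and 0.154 ± 0.00691 after idelalisib, all treated groups above the DMSO group (exact permutation p of 0.1 each).

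**Figure D3:**
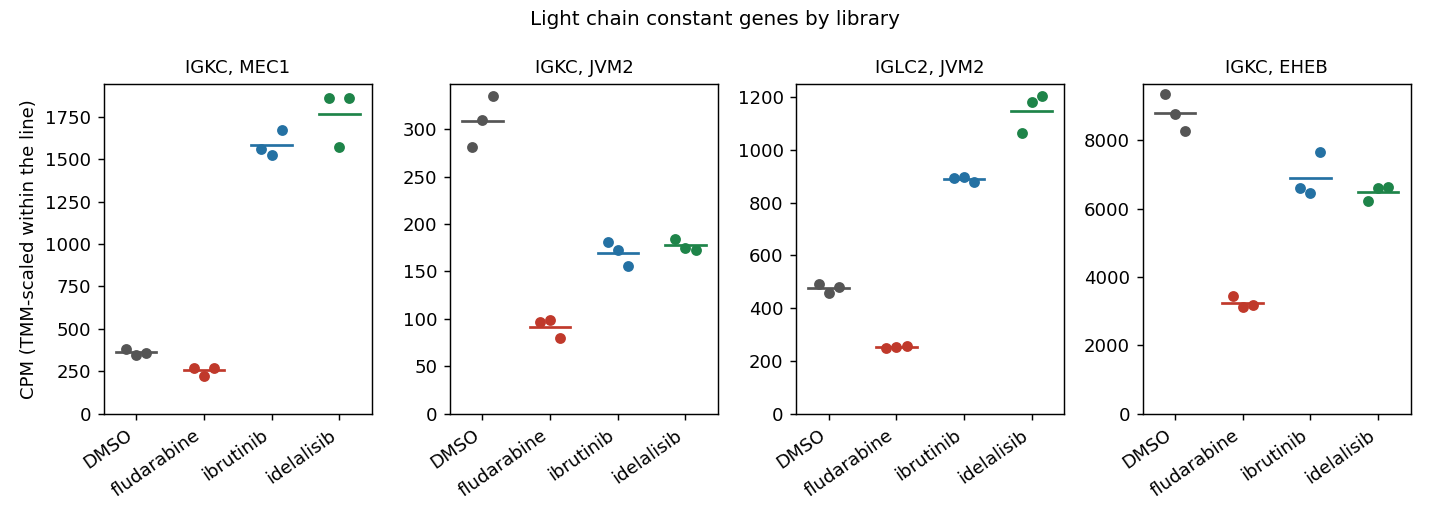
CPM of the light chain genes in each library, scaled within the line, is plotted by treatment from 0, with a horizontal line at the mean of 3 libraries. IGKC in MEC1 and IGLC2 in JVM2 are higher with ibrutinib and idelalisib than with DMSO, and IGKC in JVM2 and EHEB is lower with every drug.

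JCHAIN showed the largest fall of any member. In EHEB it stood at 811, 589 and 693 CPM with DMSO and at 24.04, 23.4 and 22.9 CPM after fludarabine, a change of -4.90 ± 0.12 (SE, edgeR adjusted p = 1.74e-09). JCHAIN counts per IGHG1 count in EHEB went from 0.198 ± 0.0181 to 0.0232 ± 0.00116, without overlap between the groups (exact permutation p of 0.1). In JVM2 it stood at 763, 762 and 595 CPM with DMSO and 151, 155 and 139 CPM after fludarabine (-2.25 ± 0.11 SE, edgeR adjusted p = 4.94e-08). In MEC1 it stood at 402, 395 and 384 CPM with DMSO and 204, 183.7 and 212 CPM after fludarabine (-0.98 ± 0.12 SE, edgeR adjusted p = 7.74e-05), where its ratio to IGHM counts overlapped the DMSO group, with 0.386 ± 0.0302 against 0.387 ± 0.00976.

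Both inhibitors raised JCHAIN in MEC1, and neither gave a called rise in JVM2 or EHEB. With ibrutinib MEC1 had 818, 756 and 891 CPM and with idelalisib 1408, 1220.0 and 1816 CPM, rises of 1.06 ± 0.12 (SE, edgeR adjusted p = 3.54e-05) and 1.91 ± 0.13 (SE, edgeR adjusted p = 3.49e-07). In EHEB ibrutinib lowered it to 468, 456 and 505 CPM (-0.55 ± 0.098 SE, edgeR adjusted p = 0.0026), while idelalisib at 689.8, 608 and 625 CPM overlapped the DMSO group (-0.12 ± 0.098 SE, edgeR adjusted p = 0.376). In JVM2 neither was called, with 643, 634 and 641 CPM after ibrutinib (-0.15 ± 0.11 SE, edgeR adjusted p = 0.359) and 714, 869 and 927 CPM after idelalisib (0.24 ± 0.11 SE, edgeR adjusted p = 0.0911).

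**Figure D4:**
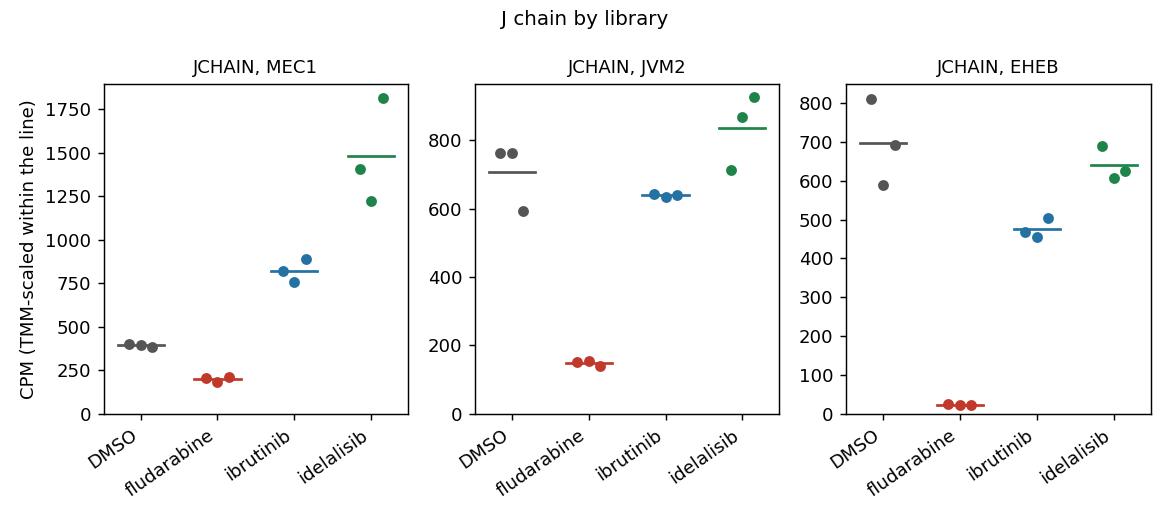
JCHAIN CPM in each library, scaled within the line, is plotted from 0 by treatment for MEC1, JVM2 and EHEB, with a horizontal line at the mean of 3 libraries. The fludarabine libraries are lowest in every line, at 24.04, 23.4 and 22.9 CPM in EHEB, and the ibrutinib and idelalisib libraries lie above the DMSO libraries in MEC1.

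Whether a drug effect differed between lines was tested as the interaction of line and treatment, in a fit of the 18 libraries of DMSO and a drug. Of 17 tests a drug over the 3 pairs of lines, for members tested in both lines, 11 were called for fludarabine, 9 for ibrutinib and 9 for idelalisib. The background over all genes, for MEC1 against JVM2, MEC1 against EHEB and EHEB against JVM2, was 25.2%, 29.4% and 22.2% with fludarabine, 25.9%, 26.4% and 12% with ibrutinib, and 35%, 38% and 21.3% with idelalisib. The IGKC response to ibrutinib in MEC1 exceeded that in JVM2 by 2.97 ± 0.12 (SE, edgeR adjusted p = 1.52e-09) and that in EHEB by 2.47 ± 0.12 (SE, edgeR adjusted p = 4.18e-09) on the log2 scale. With idelalisib these differences were 3.02 ± 0.10 (SE, edgeR adjusted p = 4.71e-11) and 2.68 ± 0.10 (SE, edgeR adjusted p = 1.08e-10). The JCHAIN response to fludarabine in EHEB was lower than that in JVM2 by a difference of -2.68 ± 0.15 (SE, edgeR adjusted p = 4.27e-09), and MEC1 minus EHEB was 3.99 ± 0.15 (SE, edgeR adjusted p = 2.91e-10). With ibrutinib and idelalisib the JCHAIN response in MEC1 exceeded that in JVM2 by 1.18 ± 0.15 (SE, edgeR adjusted p = 4.27e-05) and 1.60 ± 0.21 (SE, edgeR adjusted p = 1.64e-05).

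For IGHM the fit of 18 libraries included EHEB, where the gene was almost absent, and its SE was several times that of the fits within a line. With fludarabine the difference of MEC1 minus JVM2 was 0.53 ± 0.28 (SE, edgeR adjusted p = 0.193) and was not called. A fit of only the 12 libraries of both lines, chosen after the data were seen, gave 0.54 ± 0.063 (SE, edgeR adjusted p = 9.87e-05). The same restriction gave 0.50 ± 0.092 (SE, edgeR adjusted p = 0.00212) after ibrutinib and 0.22 ± 0.065 (SE, edgeR adjusted p = 0.0205) after idelalisib, against 0.50 ± 0.59 (SE, edgeR adjusted p = 0.624) and 0.17 ± 0.33 (SE, edgeR adjusted p = 0.78) in the fit of 18. Over the 3 pairs, the restricted fits called 13, 11 and 11 of the 17 tests for fludarabine, ibrutinib and idelalisib. The share of all genes called in the restricted fits was not kept, so these counts cannot be set against a background.

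A rearranged chain joins a variable gene to its constant gene. For the light chains, the variable gene with the highest CPM with DMSO in each line changed by nearly the same amount as the constant gene. In MEC1 the leading kappa variable gene was IGKV4-1, at 268, 244 and 251 CPM with DMSO, 165, 149 and 182 after fludarabine, 1081, 1050.0 and 1131 after ibrutinib and 1287, 1082 and 1309 after idelalisib. Its changes of -0.62, 2.10 and 2.27 (edgeR adjusted p = 1.83e-04, 3.71e-08 and 2.23e-08) stand beside -0.51, 2.13 and 2.29 for IGKC. In JVM2 the leading lambda variable gene was IGLV2-14, at 667, 671 and 697 CPM with DMSO, with changes of -0.95, 0.87 and 1.32 beside -0.92, 0.90 and 1.27 for IGLC2. In EHEB it was IGKV1-33, at 3000.0, 2832 and 2537 CPM, with changes of -1.41, -0.41 and -0.45, all called. The next kappa variable gene in EHEB was IGKV1D-33, the near-copy of IGKV1-33, at 1029, 1019 and 978 CPM, so the division of reads between this pair is uncertain. IGKV1D-33 changed by -2.10, -0.46 and -1.05, of which the ibrutinib value was not called, beside -1.44, -0.35 and -0.44 for IGKC.

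No IGKV gene in JVM2 came near the level of IGKC, also per length, since the annotated exons of IGKC cover 523 bases and those of IGKV4-1 538 bases. The leading IGKV gene there was IGKV4-1 at 0.94, 1.27 and 1.19 CPM with DMSO, against 281.4, 309.9 and 335 CPM for IGKC. Its changes with fludarabine, ibrutinib and idelalisib were -0.70, 0.86 and 0.39 (edgeR adjusted p = 0.0779, 0.0462 and 0.305), and the ibrutinib value alone was called. The kappa joining segment IGKJ1, which was looked at after its values were seen, stood at 6.73, 7.87 and 8.06 CPM with DMSO and changed with the drugs by -1.80, -0.89 and -0.91, beside -1.75, -0.87 and -0.80 for IGKC. In MEC1 and EHEB, by contrast, the leading IGKV gene reached 254 and 2790.0 CPM on average with DMSO.

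For the heavy chain, IGHV4-59 led in MEC1 at 57.7, 52.5 and 45.5 CPM with DMSO and changed by -1.34, 0.35 and 0.51, all called. The next gene there, IGHV1-69, at 32.7, 34.2 and 37.9 CPM, changed by -0.64, 1.40 and 1.70, all called, beside -0.97, 0.52 and 0.57 for IGHM. Reads of IGHV1-69 and its near-copy IGHV1-69D may be divided between them. In EHEB IGHV1-18 stood at 93.96, 91.1 and 107 CPM with DMSO and 4.53, 17.1 and 13.9 after fludarabine, a change of -3.03 (edgeR adjusted p = 2.41e-04), and was called with neither inhibitor. IGHV1-69D in EHEB stood at 26.2, 29.6 and 31.3 CPM with DMSO and changed by -0.17, 0.024 and 0.27 (edgeR adjusted p = 0.15, 0.889 and 0.0351), so it was not called with fludarabine. In JVM2 IGHV3-20 is listed at 0 in 4 libraries (JVM2_CTRL_DMSO_85, JVM2_Flud_50uM_95, JVM2_Flud_50uM_96 and JVM2_Idel_10uM_239), and has 79.9, 79.6 and 78.8 CPM after ibrutinib and 75.0 and 80.6 CPM in the other DMSO libraries. Zeros beside such values within a group of like libraries are not read as absence, and no change is given for this gene. With DMSO IGHV4-59 averaged 51.9 CPM beside 1017 CPM for IGHM in MEC1. In EHEB IGHV1-18 averaged 97.2 CPM beside 3508 CPM for IGHG1. Counts per gene do not show which variable gene is joined to which constant gene.

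**Figure D5:**
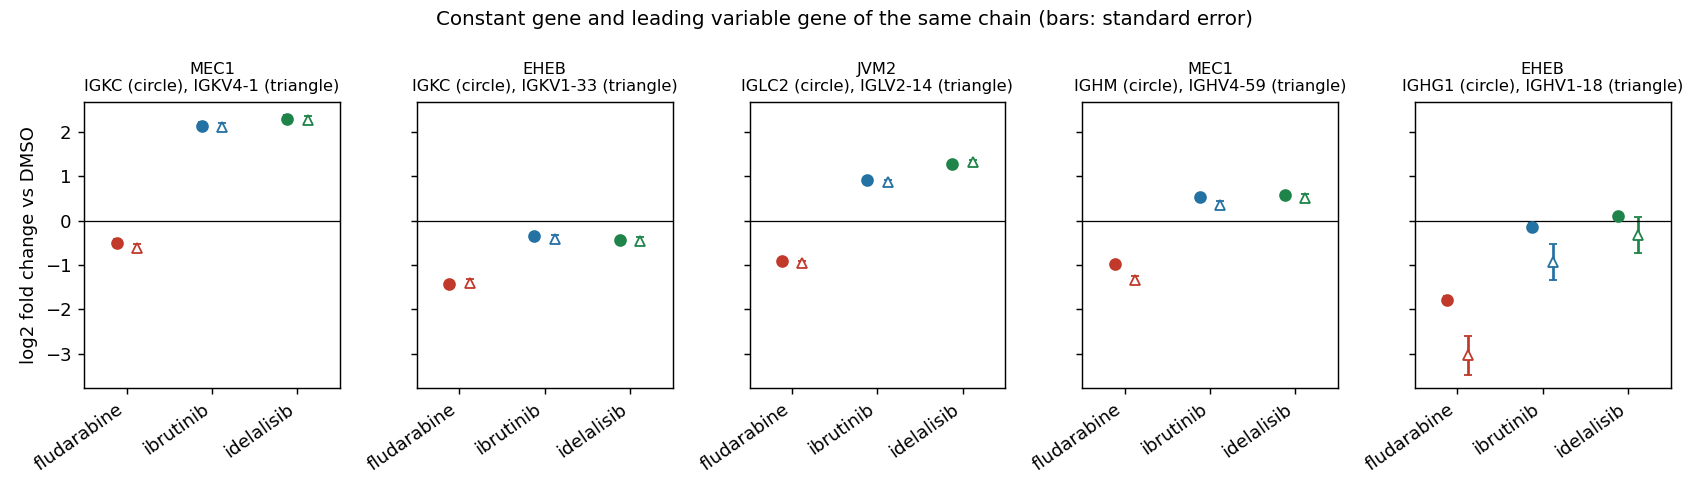
The log2 fold change against DMSO is plotted by drug for 5 pairs of genes, with bars for the standard error. Filled circles are a constant gene, and open triangles the leading variable gene of the same chain type (heavy, kappa or lambda). Counts per gene do not show whether a pair is joined in a chain. The light chain pairs differ little, and in EHEB IGHV1-18 lies below IGHG1 with fludarabine, at -3.03 against -1.80.

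Transcription of a rearranged chain starts at the promoter of its variable gene, and the octamer ATTTGCAT, or ATGCAAAT on the other strand, is the known binding sequence of the factors POU2F1 and POU2F2 in immunoglobulin promoters. The stretches around it are shown for 4 leading variable genes because a rearranged chain is transcribed from them. The sequences come from windows of GRCh38, 250 bases before to 50 after the start of the gene in GENCODE release 44. They are given on the strand of the gene, with the octamer in capitals. For JCHAIN the window was a RefSeq promoter window of GRCh38.p14.
IGHV3-20 (JVM2), chr14:106211486-106211545, minus strand: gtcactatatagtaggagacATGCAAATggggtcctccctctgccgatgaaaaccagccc
IGLV2-14 (JVM2), chr22:22758613-22758672, plus strand: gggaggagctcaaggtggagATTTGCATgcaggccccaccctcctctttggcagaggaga
IGHV1-18 (EHEB), chr14:106185399-106185458, minus strand: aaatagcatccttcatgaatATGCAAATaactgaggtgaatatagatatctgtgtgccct
IGKV1-33 (EHEB), chr2:89268531-89268590, minus strand: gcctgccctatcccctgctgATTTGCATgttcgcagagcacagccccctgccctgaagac
The octamer began 72, 67, 44 and 64 bases before the annotated start of IGHV3-20, IGLV2-14, IGHV1-18 and IGKV1-33. In IGHV4-59 it lay 32 bases after the annotated start, and the windows of IGKV4-1 and JCHAIN did not hold these letters. Of 35116 RefSeq promoter windows of the same length, 623 (1.77%) held the octamer on either strand. They were placed by another annotation than the windows of the variable genes. A match describes the sequence and does not show binding.

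The table also holds constant genes outside the 10 members. IGHG4, another IgG gene, stood at 389 ± 8.61 CPM with DMSO in EHEB and 44.2 ± 11.2 CPM in MEC1 and fell with fludarabine, with log2 fold changes of -2.20 and -1.54. In MEC1 it rose with ibrutinib and idelalisib by 1.31 and 1.47 (edgeR adjusted p = 3.18e-04 and 9.99e-05), and IGHA2 by 0.81 and 0.84. IGHG4 changed by -0.53 with ibrutinib in EHEB (edgeR adjusted p = 0.0253) and was not called with idelalisib there. IGHA2 changed with fludarabine by -0.81 in MEC1 and by -0.77 in EHEB, both called. IGHE, the IgE gene, was low with DMSO, at 1.46 ± 0.457 CPM in EHEB, where it rose with ibrutinib by 2.63 (edgeR adjusted p = 0.0016) and with idelalisib by 3.12 (edgeR adjusted p = 2.49e-04), while IGHG1 was called with neither. Its counts were lower still in MEC1 (13 to 62 a library), where it rose by 1.72, 1.77 and 1.18 after fludarabine, ibrutinib and idelalisib. In EHEB IGHE changed with fludarabine by -2.67 (edgeR adjusted p = 0.00321). In JVM2, at 0 to 53 counts a library, it rose with ibrutinib by 4.25 and with idelalisib by 4.69 (edgeR adjusted p = 0.00947 and 0.00339). The fludarabine value was not called there. IGLL5, which lies in the lambda locus and shares sequence with IGLC1, held at most 111 counts. It was called lower with fludarabine in EHEB (edgeR adjusted p = 7.33e-04) and higher with idelalisib in JVM2 (1.80, edgeR adjusted p = 0.0499). IGLC1 held at most 80 counts in any library, IGLC6 at most 24 and IGLC7 at most 22, and IGLC4, IGLC5 and the surrogate light chain gene IGLL1 at most 3, 3 and 0. At these low counts IGLC6 was called higher with idelalisib in JVM2 (1.32, edgeR adjusted p = 0.0418). The 416 immunoglobulin entries of the table together took 0.264% of counts with DMSO in MEC1, 0.834% in JVM2 and 1.72% in EHEB. With fludarabine, ibrutinib and idelalisib these shares were 0.164%, 0.608% and 0.641% in MEC1, 0.352%, 0.952% and 1.23% in JVM2, and 0.612%, 1.47% and 1.52% in EHEB.

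CD79A and CD79B hold membrane immunoglobulin at the surface and carry its signal. In MEC1 both rose with the inhibitors, CD79A by 1.19 and 1.17 and CD79B by 1.31 and 1.68 after ibrutinib and idelalisib, and neither was called with an inhibitor in JVM2 or EHEB. With fludarabine CD79A went from 293 ± 12.7 to 77.5 ± 7.54 CPM in JVM2 and from 521 ± 20.4 to 228 ± 33.2 CPM in EHEB, changes of -1.92 and -1.19. It was not called with fludarabine in MEC1 (-0.11, edgeR adjusted p = 0.147). CD79B fell with fludarabine in every line, with called changes of -0.51, -0.67 and -0.29 in MEC1, JVM2 and EHEB.

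Among 20 regulators of immunoglobulin transcription and of the switch to secretion, fludarabine lowered 8 and raised 3 in MEC1, lowered 9 and raised 4 in JVM2, and lowered 11 and raised 2 in EHEB. Their median log2 fold change was -0.0011, -0.37 and -0.58 beside 0.056, 0.056 and 0.020 for all genes. With ibrutinib 9 rose and 6 fell in MEC1, 7 rose and 2 fell in JVM2, and 3 rose and 4 fell in EHEB, with medians of 0.18, 0.16 and -0.086 beside 0.060, -0.0014 and 0.0095. With idelalisib 6 rose and 6 fell in MEC1, 9 rose and 3 fell in JVM2, and 4 rose and 1 fell in EHEB, with medians of -0.070, 0.30 and 0.013 beside 0.081, 0.026 and 0.013. In all, fludarabine changed 11, 13 and 13 of the 20 in MEC1, JVM2 and EHEB, against 43.9%, 47.2% and 37.5% of all genes tested. Ibrutinib changed 15, 9 and 7 (47.6%, 29.4% and 19.7% of all genes), and idelalisib 12, 12 and 5 (55%, 44.2% and 33.3%). POU2AF1, the octamer co-activator of B cells, was called in all 9 comparisons. It fell with fludarabine, with changes of -0.89, -0.94 and -0.71 in MEC1, JVM2 and EHEB and rose with idelalisib by 0.34, 0.38 and 0.92. IRF4, which promotes plasma cell differentiation, fell with fludarabine, with changes of -1.02, -0.88 and -0.95, and TCF3, an activator of the immunoglobulin enhancers, fell too, with changes of -1.49, -0.92 and -1.14. With ibrutinib and idelalisib IRF4 changed by 0.21 and -0.37 in MEC1, by 0.44 and 0.51 in JVM2, and by 0.25 and 0.10 in EHEB, where the idelalisib value was not called. TCF3 changed by -0.59 and -0.88 in MEC1, by 0.27 and 0.23 in JVM2, and by 0.23 and 0.49 in EHEB, where the ibrutinib value was not called. BCL6, the germinal centre repressor, was below 1 CPM with DMSO in JVM2 and EHEB, and with fludarabine it rose by 4.72 in JVM2 and by 2.28 in EHEB. In MEC1 it went from 12.3 ± 0.656 CPM to 5.99 ± 1.12 CPM after ibrutinib, a change of -1.03.

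Of 20 genes of antibody assembly and secretion, fludarabine lowered 13 and raised 3 in MEC1, lowered 7 and raised 8 in JVM2, and lowered 6 and raised 8 in EHEB, with medians of -0.50, 0.015 and 0.12. Ibrutinib lowered 11 and raised 5 in MEC1, lowered 9 and raised 1 in JVM2, and lowered 3 and raised 3 in EHEB, with medians of -0.32, -0.19 and 0.053. Idelalisib lowered 9 and raised 6 in MEC1, lowered 11 and raised 3 in JVM2, and lowered 10 and raised 3 in EHEB, with medians of -0.051, -0.27 and -0.32. The medians of all genes were those given above. In all, fludarabine changed 16, 15 and 14 of the 20 in MEC1, JVM2 and EHEB, ibrutinib 16, 10 and 6, and idelalisib 15, 14 and 13, against the same shares of all genes (43.9%, 47.2% and 37.5%, then 47.6%, 29.4% and 19.7%, then 55%, 44.2% and 33.3%). HSPA5, the chaperone that binds unfolded heavy chains, fell with ibrutinib and idelalisib in MEC1, with changes of -0.61 and -0.59, and HSP90B1, another chaperone of the endoplasmic reticulum, did so with changes of -0.30 and -0.24. Both fell with these inhibitors in JVM2 too, with changes of -0.33 and -0.34 for HSPA5 and -0.35 and -0.31 for HSP90B1. With fludarabine HSPA5 fell in MEC1 (-0.52) and was not called in JVM2 (0.12), and HSP90B1 fell in both lines (-0.29 and -0.45). In EHEB HSPA5 rose with fludarabine by 0.89 and with ibrutinib by 0.29 and changed with idelalisib by -0.39, and HSP90B1 rose by 0.18, 0.40 and 0.32. LMAN1, a cargo receptor between endoplasmic reticulum and Golgi, fell in 8 of the 9 comparisons, with a change of -1.06 after idelalisib in JVM2, and PDIA6, a disulfide isomerase, also fell in 8. SEC11C, a subunit of the signal peptidase, rose in 7, by 0.99 after idelalisib in MEC1.

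The labelled cell type was checked against marker lists. All 10 B cell markers stood at 1 CPM or more in every group. Of the precursor B cell list RAG2, DNTT, VPREB1 and IGLL1 were at 0 with DMSO in all lines. VPREB3 stood at 1.81 CPM in MEC1, and RAG1, MME and otherwise VPREB3 were below 1 CPM. This list summed to between 1.7 and 1.9 CPM in MEC1 with DMSO. After fludarabine, ibrutinib and idelalisib it summed there to between 5.5 and 7.2, between 4.6 and 5.2 and between 4.1 and 5.1 CPM. In JVM2 and EHEB it summed to at most 2.4 CPM in any group. The 8 plasma cell markers, of which JCHAIN is a member, summed to between 1171 and 1209 CPM in MEC1 with DMSO and to between 2278 and 3085 CPM with idelalisib, and in EHEB to between 1570 and 2032 CPM with DMSO and between 850 and 968 CPM with fludarabine. The other 7 markers of this list summed to between 776 and 825 CPM in MEC1 with DMSO and between 1058 and 1269 CPM with idelalisib, and in EHEB to between 981 and 1221 CPM and, with fludarabine, between 826 and 945 CPM. Among them PRDM1, a regulator of plasma cell differentiation, went the other way, by -1.99 on the log2 scale after idelalisib in MEC1. In JVM2 the 8 markers summed to between 1567 and 1803 CPM with DMSO and between 1184 and 1300 CPM with fludarabine. Without JCHAIN the JVM2 sums were between 912 and 1039 CPM and, with fludarabine, between 1028 and 1149 CPM. PRDM1 rose there by 1.49 with fludarabine. Of the 8 T cell markers, CD3D and CD3G were at 0 with DMSO in all lines, while in EHEB CD3E stood at 5.13 CPM, CD2 at 5.99 CPM and CD28 at 45.5 CPM. The T cell list summed to between 57.3 and 106 CPM with DMSO, with TRAC at 39.5, 57.4 and 41.1 CPM in MEC1, JVM2 and EHEB. Of the 8 myeloid markers, LYZ, MPO and FCN1 were at 0 with DMSO in all lines, and ITGAM stood at 6.69, 10.6 and 21.8 CPM. The myeloid list summed to between 6.81 and 8.60 CPM with DMSO in MEC1 and to between 25.1 and 28.7, between 29.7 and 33.2 and between 42.6 and 45.8 CPM after fludarabine, ibrutinib and idelalisib. In JVM2 it summed to between 10.9 and 14.0 CPM and then to between 40.1 and 41.7, between 17.4 and 19.4 and between 36.7 and 39.8 CPM, and in EHEB to between 22.9 and 27.3 CPM and then to between 66.7 and 77.2, between 22.9 and 25.6 and between 24.5 and 28.6 CPM. It was thus above the DMSO range after fludarabine in every line, and after the inhibitors in MEC1 and JVM2. Few of its 8 markers carry the sum. At most 3 stood at 1 CPM or more in a group (EHEB with fludarabine), and only 1 in MEC1 with DMSO, ibrutinib or idelalisib. With DMSO the 6 NK cell markers summed to between 320 and 330 CPM in MEC1 and to at most 32.6 CPM in JVM2 and EHEB. PRF1 stood at 262 CPM in MEC1. With ibrutinib the NK cell list in MEC1 summed to between 88.3 and 172 CPM. The part of these lists in the changes of the members was not tested.

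The genes most like IGHM across the 24 MEC1 and JVM2 libraries, by Pearson's r of log2 CPM after each line was centred on its mean, were UBE2J1 (r = 0.985), ATP8A1 (r = 0.983) and RAPGEF2 (r = 0.978), among 12115 genes. Those most like JCHAIN over all 36 libraries were UBE2J1 (r = 0.973), CD27 (r = 0.965) and SLAMF6 (r = 0.964). The libraries share treatments and groups, so these values describe the pattern over groups. UBE2J1, a ubiquitin-conjugating enzyme of the endoplasmic reticulum, changed with fludarabine by -0.56, -1.11 and -1.95 in MEC1, JVM2 and EHEB, and CD27, a receptor of the TNF family on memory B cells and plasmablasts, by -0.77, -2.10 and -3.37.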

How the data were processed

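Ribosomal RNA-depleted total RNA of 36 libraries was quantified by the authors with Trimmomatic, HISAT2 2.1 (GRCh38, hg38) and StringTie 1.3.4 on Ensembl annotation, and the deposited values are expected counts (estimated read counts per gene, given as whole numbers, not normalised). The submitters' processing notes also name edgeR 3.22.5. Not given in the sources used here were strand, read length and Ensembl release. An entry with a blank symbol (0.00384% of counts) was left out.

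Each line's 12 libraries were fitted in edgeR 4.0.16 (R 4.3.3) with TMM, filterByExpr (at least 10 counts, 15 in total), the quasi-likelihood F-test and Benjamini-Hochberg adjustment over all genes tested (17516 in MEC1, 17508 in JVM2, 17748 in EHEB), with a call at an adjusted p under 0.05. Lines were compared in a fit of the 9 DMSO libraries, and drug effects between lines in fits of 18 libraries. Groups came from the sample labels. The procedure was tested on simulated counts. Depth per library limits the precision of low genes, and floors of 3 counts cover counting error only. Replicate pairs differed by more than counting noise (chi-square per degree of freedom 24.9 to 48.9), so no set of counts was a copy of another. As the values are estimated counts, this does not show whether the triplicates were separate cultures or preparations.

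Levels per kilobase used the exon union of GENCODE release 44. Ratios and shares are of counts within a library, with exact two-sided permutation tests. Alternatives were library size scaling, TMM without immunoglobulin genes, DESeq2 1.42.0, voom in limma 3.58.1, no filter or a mean CPM of at least 5, fits of 6 or all 36 libraries, and each library left out. Named genes were the members, other constant genes with at least 10 counts in a library (those with less are given as limits only), the leading and next variable genes by line, and up to 5 genes a list by number of calls, of which 1 is not reported here. For IGHM, likeness used 24 libraries, since it was not tested in EHEB (pseudocount of 0.5 CPM). The members and lists were chosen with earlier results of these data known. Sequences and the promoter windows of the variable genes were read from GRCh38 with GENCODE coordinates. The JCHAIN window and the background windows were RefSeq promoter windows of GRCh38.p14.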

Additional observations from a re-analysis of the deposited data

Results flagged for a closer look

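The results below were singled out because a drug effect differed between lines in the test of the difference itself (interaction of line and treatment, edgeR adjusted p under 0.05). Values are differences of log2 fold changes, the line named first minus the other. All of them compare lines at unequal exposure times.

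With fludarabine, MEC1 minus JVM2 was 1.3 for JCHAIN, 1.28 for IGKC, 1.51 for IGHD, -1.39 for IGHG1 and -3.32 for IGHG3. MEC1 minus EHEB was 3.99 for JCHAIN, 1.00 for IGKC and 0.82 for IGHG3. EHEB minus JVM2 was -2.68 for JCHAIN, -1.74 for IGHG1 and -4.14 for IGHG3. IGHG1 and IGHG3 held at most 50 and 125 counts a library in JVM2, so the differences of these genes that involve JVM2 rest on low counts.

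With ibrutinib, MEC1 minus JVM2 was 1.18 for JCHAIN and 2.97 for IGKC. MEC1 minus EHEB was 1.60 for JCHAIN, 2.47 for IGKC, 0.88 for IGHG2, 0.96 for IGHA1 and 0.96 for IGHG3. EHEB minus JVM2 was 0.50 for IGKC and -1.58 for IGHG3. The difference for IGHG2 was called in 13 of 18 fits with a library left out.

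With idelalisib, MEC1 minus JVM2 was 1.60 for JCHAIN, 3.02 for IGKC, 0.54 for IGHD and -1.77 for IGHG3. MEC1 minus EHEB was 1.99 for JCHAIN, 2.68 for IGKC and 0.52 for IGHG3. EHEB minus JVM2 was 0.34 for IGKC, called in 12 of 18 fits with a library left out, and -2.30 for IGHG3.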

How the results depend on the processing

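Of 776 fits of a member under another setting, 736 kept the direction and the side of the threshold, as did 557 of the 594 fits with a library left out. None of the values that changed sign was called. IGHG1 with fludarabine in JVM2 was 0.13 by voom, 0.17 without TMM and -0.47 to 0.34 with a library left out (above 0 without JVM2_CTRL_DMSO_86, JVM2_CTRL_DMSO_87 or JVM2_Flud_50uM_95). IGHM with ibrutinib in JVM2 was 0.076 without TMM, 0.011 with the stricter filter, 0.012 in the fit of 6 libraries, 0.0093 in the joint fit and -0.021 to 0.032 with a library left out (above 0 without JVM2_CTRL_DMSO_87, JVM2_Ibru_5uM_233 or JVM2_Ibru_5uM_234). IGHG2 with idelalisib in EHEB was 0.028 without TMM and -0.17 to 0.011 with a library left out (above 0 without EHEB_CTRL_DMSO_133), JCHAIN was -0.22 to 0.013 (likewise), and IGHA1 was -0.018 to 0.18 (below 0 without EHEB_CTRL_DMSO_133 or EHEB_Idel_10uM_287). IGLC2 with ibrutinib in EHEB was -0.096 to 0.94 (below 0 without EHEB_Ibru_5uM_281). IGHA1 in MEC1 against EHEB was 0.079 without TMM and -0.13 to 0.037 with a library left out (above 0 without EHEB_CTRL_DMSO_135), and JCHAIN in EHEB against JVM2 was -0.15 to 0.088 (above 0 without JVM2_CTRL_DMSO_85, JVM2_CTRL_DMSO_86 or EHEB_CTRL_DMSO_134). The cause of these changes was not tested.

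Beside the calls named above as lost, that of IGHG2 with ibrutinib in MEC1 was lost without MEC1_DMSO_CTRL_48h_38 or MEC1_Ibru_5uM_48h_186, without the filter and in the joint fit. That of IGHG1 with ibrutinib in MEC1 was lost without the filter and in the joint fit, and with idelalisib without TMM and in the joint fit. IGHD with idelalisib in JVM2 was lost without TMM, without the filter, with the stricter filter and in the joint fit, and IGHG2 with ibrutinib in EHEB without TMM and in the joint fit. Calls were gained for IGHD with fludarabine in MEC1 by DESeq2, by voom, in the joint fit and without MEC1_Flud_50uM_48h_47, and for IGHD with idelalisib there by DESeq2, by voom, with the stricter filter, in the fit of 6 libraries and in the joint fit. They were gained for IGHG2 with idelalisib in MEC1 with the stricter filter, for JCHAIN with idelalisib in JVM2 without TMM, with the stricter filter and without JVM2_Idel_10uM_238, for IGHA1 with ibrutinib in EHEB by DESeq2, by voom and without EHEB_CTRL_DMSO_133, and for IGKC in MEC1 against JVM2 without TMM. The joint fit of 36 libraries lost IGHM with ibrutinib (0.48, adjusted p = 0.303) and idelalisib (0.51, adjusted p = 0.251) in MEC1 and with idelalisib in JVM2 (0.34, adjusted p = 0.501). IGKC with fludarabine in MEC1 was between -0.53 and -0.26 over the settings, lowest in size without TMM, and stayed called. Library size scaling without TMM moved the median log2 fold change of all genes by over 0.1 in several comparisons, to 0.31, 0.26 and 0.13 with fludarabine in MEC1, JVM2 and EHEB, to 0.11 with ibrutinib in EHEB, to 0.13 with idelalisib in JVM2 to 0.10 for MEC1 against JVM2 and from -0.051 to 0.063 for MEC1 against EHEB. The genes called higher and lower with fludarabine were then 6052 and 2113 in MEC1 (3721 and 3973 with TMM), 6155 and 2752 in JVM2 (4183 and 4086) and 4228 and 2611 in EHEB (3259 and 3404). With ibrutinib they were 3259 and 1978 in JVM2 (2531 and 2620) and 2524 and 1334 in EHEB (1509 and 1990), and with idelalisib 4651 and 3166 in JVM2 (3779 and 3960) and 3579 and 2431 in EHEB (2681 and 3232). In MEC1 they were 4694 and 3565 with ibrutinib (4148 and 4195) and 4166 and 5399 with idelalisib (4843 and 4797), against JVM2 6067 and 5056 (5232 and 5860) and against EHEB 6205 and 5574 (5488 and 6229). The kappa share in JVM2 with DMSO was 34.5% of counts (33.7% to 35.8% with a library left out) and 31.7% per kilobase of exon. The IGHM share was 70.9% per kilobase of exon and 58.3% per kilobase of coding sequence in MEC1, and 90.5% and 91.0% in JVM2. The kilobase of coding sequence, the fits between lines with a library left out and those of 2 lines were chosen after the data were seen. With a library left out, the tests between lines called 11 to 12, 8 to 11 and 8 to 9 for fludarabine, ibrutinib and idelalisib. No paired analysis was possible because the library numbers are not shared between groups.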
